A study of Mus musculus with 15 samples.

Results

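The genes described here are the H2 genes of the mouse major histocompatibility complex (MHC) and the genes that assemble, load or switch on MHC molecules, read in colon RNA of 3 *Tert* genotypes with and without experimental colitis. Members were all symbols starting with H2- in the deposited table of log2 CPM (counts scaled to the library total), which gave 27 genes, and 9 others: *B2m*, *Tap1*, *Tap2*, *Tapbp*, *Tapbpl*, *Nlrc5*, *Ciita*, *Cd74* and *Erap1*. These were 36 of the 17531 symbols in that table, and all 36 were among the 17477 genes tested. A further 17 H2 symbols in the count table were not members. Their highest count in any library was 10, and 7 were at 0 in every library.

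The study compared wild type mice (WT, TERT+/+), mice with a knock-in of an enzymatically inactive TERT (VAA) and TERT knockout mice (KO, TERT-/-), aged 8 to 12 weeks. The *Tert* product is the catalytic protein of telomerase. Mice of each genotype were untreated (2 libraries per genotype) or were given 3% dextran sulfate sodium (DSS), which damages the lining of the colon, for 4 days and plain water for 4 more, with colon taken on day 8 (3 libraries per genotype). The labels give no separate schedule for the untreated mice, no background strain and no statement that libraries of a group came from separate mice, so *P* values measure the spread between these libraries.

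Class I molecules sit on nearly all nucleated cells and show peptides from the cytosol to CD8+ T cells. Each is a heavy chain, classical (*H2-K1*, *H2-D1*) or nonclassical (the Q, T and M genes, with *H2-K2* and *H2-Bl* counted among them here), held together with beta-2 microglobulin, and its peptides are pumped into the endoplasmic reticulum by the TAP transporter. Class II molecules are made chiefly by dendritic cells, macrophages and B cells, pair an alpha with a beta chain, and take peptides in endosomes after the invariant chain CD74 is removed. NLRC5 and CIITA are the transcriptional coactivators of the class I and class II genes, and interferon gamma induces both. Intestinal epithelium is known to add class II to its surface in inflammation.

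Stretches upstream of 4 starts are shown as examples of windows that differ in letters. A promoter window from RefSeq on GRCm38.p6 matched 24 of the 36 members, and the 250 bases before the start were searched on both strands for 5 motifs chosen after the letters of some windows had been seen. These were an NF-kB-type box (the first run of capitals in *H2-K1* and *H2-Q7*), TTTCACTT (an interferon box), TGNTGAC (the cyclic AMP response-like part of the X box), GATTGG (the Y box) and AGCAAC (a core of the X box of class II genes). Capitals mark the matches, and the bases printed lie before both the RefSeq start and the GENCODE gene model.
*H2-K1*, minus strand, chr17:34000348-34000597: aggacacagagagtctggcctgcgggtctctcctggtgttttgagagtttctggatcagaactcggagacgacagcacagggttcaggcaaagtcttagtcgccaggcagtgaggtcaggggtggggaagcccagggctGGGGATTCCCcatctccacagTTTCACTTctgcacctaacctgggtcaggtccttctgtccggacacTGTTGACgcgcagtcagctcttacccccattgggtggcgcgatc
*H2-Q7*, plus strand, chr17:35438905-35439154: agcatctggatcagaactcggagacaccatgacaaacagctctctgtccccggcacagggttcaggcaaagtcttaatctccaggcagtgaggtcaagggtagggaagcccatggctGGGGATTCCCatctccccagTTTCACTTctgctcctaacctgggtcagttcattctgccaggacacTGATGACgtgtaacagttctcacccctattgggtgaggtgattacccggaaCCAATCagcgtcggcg
*H2-Q2*, plus strand, chr17:35342057-35342241: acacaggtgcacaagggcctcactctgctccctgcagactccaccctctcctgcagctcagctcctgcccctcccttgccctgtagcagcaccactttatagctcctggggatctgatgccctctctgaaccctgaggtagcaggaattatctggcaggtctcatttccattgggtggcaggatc
*H2-Eb1*, plus strand, chr17:34305617-34305866: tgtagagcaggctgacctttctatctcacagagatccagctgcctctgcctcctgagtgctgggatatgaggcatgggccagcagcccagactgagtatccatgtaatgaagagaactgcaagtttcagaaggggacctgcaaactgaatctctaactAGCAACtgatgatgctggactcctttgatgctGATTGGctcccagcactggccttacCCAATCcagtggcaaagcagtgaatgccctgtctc

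The NF-kB-type box was found in 0.24% of the 32851 windows of this length, and its matches among members were *H2-D1*, *H2-K1*, *H2-Q4*, *H2-Q6* and *H2-Q7*, which is 5 of 24. TTTCACTT was found in 1.36% of all windows and in 8 of 24 members, the same 5 and *H2-M3*, *H2-Q10* and *H2-T22*. TGNTGAC was found in 11.69% of all windows and in 11 of 24 members, GATTGG in 14.56% and 18 of 24, and AGCAAC in 12.21% and 4 of 24. All 4 members with AGCAAC were class II genes (*H2-Eb1*, *H2-Eb2*, *H2-Oa* and *H2-Ob*), and all 8 class II chain and editor genes with a window held GATTGG. The window of *H2-Q2* held none of the 5. The windows of *B2m*, *Tap1* and *H2-DMb1*, which rose after DSS in all 3 genotypes, held neither the NF-kB-type box nor TTTCACTT. No window was available for *H2-Q1*, *H2-K2* and *H2-Bl*, which fell in WT. A match is a run of letters and says nothing of binding, and its relation to the direction of change was not tested.

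Library totals ran from 10.56 to 17.54 M counts, lowest in VAA DSS replicate 3, whose counts also stood farthest from its replicates. *Tert* counts were 23 to 40 in WT, 7 to 29 in VAA and 0 or 1 in KO. The summed CPM of 12 epithelial markers was between 9593 and 15790 in all 15 libraries. WT untreated replicate 2 and KO untreated replicate 2 held at least 868 counts of the Y-linked *Ddx3y* and the other libraries at most 20, so DSS libraries were all of one sex and untreated WT and KO were mixed. With sex as a covariate, DSS calls were lost for *Tapbpl* in WT, *Tap2* in VAA and *H2-T23*, *Tap2* and *H2-Ke6* in KO (edgeR adjusted *P* 0.05 to 0.095). Without the 2 male libraries, they were lost for *H2-K1*, *Tap1*, *Tapbpl*, *H2-Bl* and *H2-Ke6* in WT and *Tap2* in VAA. In KO they were then lost for *Ciita*, *H2-DMa*, *H2-Q10*, *H2-T23*, *Tap2* and *H2-Ke6*. Members called in WT numbered 16 without these 2 libraries (21 with them), in VAA 21 (21) and in KO 17 (23).

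After DSS most members stood higher in every genotype. By the quasi-likelihood test of edgeR, with *P* adjusted over all genes tested (Benjamini-Hochberg), 16 members rose and 5 fell in WT, where 14.1% of genes tested rose and 12.5% fell. In VAA 17 rose and 4 fell (10.9% and 9.54% of genes tested, 20.4% in all), and in KO 22 rose and 1 fell (5.59% and 5.06%). Untreated and DSS libraries did not overlap for 26 members higher and 5 lower in WT (31.9% and 31.1% of genes tested), 19 and 4 in VAA (21% and 19.7%) and 25 and 3 in KO (24.2% and 24%). The median log2 fold change of the 36 was 0.941 in WT, 0.781 in VAA and 1.539 in KO, against -0.012, 0.057 and 0.003 over all genes tested. In all 3 genotypes 14 members rose, where 3.39% of genes tested did: *H2-K1*, *H2-D1*, *H2-Q4*, *H2-Q5*, *H2-Q6*, *H2-Q7*, *H2-T10*, *H2-T22*, *H2-Ab1*, *H2-DMb1*, *B2m*, *Tap1*, *Nlrc5* and *Cd74*. This count was 7 without WT untreated replicate 1, 9 without VAA untreated replicate 2, and 8 with only the groups compared in each fit. In bulk tissue more cells of a type and more RNA per cell cannot be told apart, which holds for every result here. The summed CPM of 10 smooth muscle markers was 4292 to 7586 untreated and 718.3 to 2881 under DSS, and that of 10 neutrophil markers was 79.89 to 119.2 untreated and 362.4 to 797 under DSS in WT and VAA. The 10 NK and cytotoxic cell markers summed to 2.78 to 5.19 CPM untreated and 7.68 to 18.8 under DSS. The 12 macrophage and monocyte markers summed to 225 to 259.8 CPM untreated and 284.5 to 570.5 under DSS in WT and VAA, and to 174 to 295 and 233 to 317 in KO. The 10 dendritic cell markers summed to 26.8 to 33.6 CPM untreated and 27.3 to 46.4 under DSS in WT. These sums were 28.4 to 37.3 and 36.6 to 53.0 in VAA, and 23.2 to 34.0 and 40.0 to 47.0 in KO. The 12 B cell markers summed to 17.2 to 69.4 and 99.7 to 150 in WT, 36.5 to 124 and 33.9 to 199 in VAA, and 20.8 to 89.3 and 32.7 to 266 in KO. The 10 T cell markers summed to 17.6 to 25.2 CPM untreated and 24.4 to 46.7 under DSS. The part of such shifts in the members' changes was not tested.

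**Figure D1:**
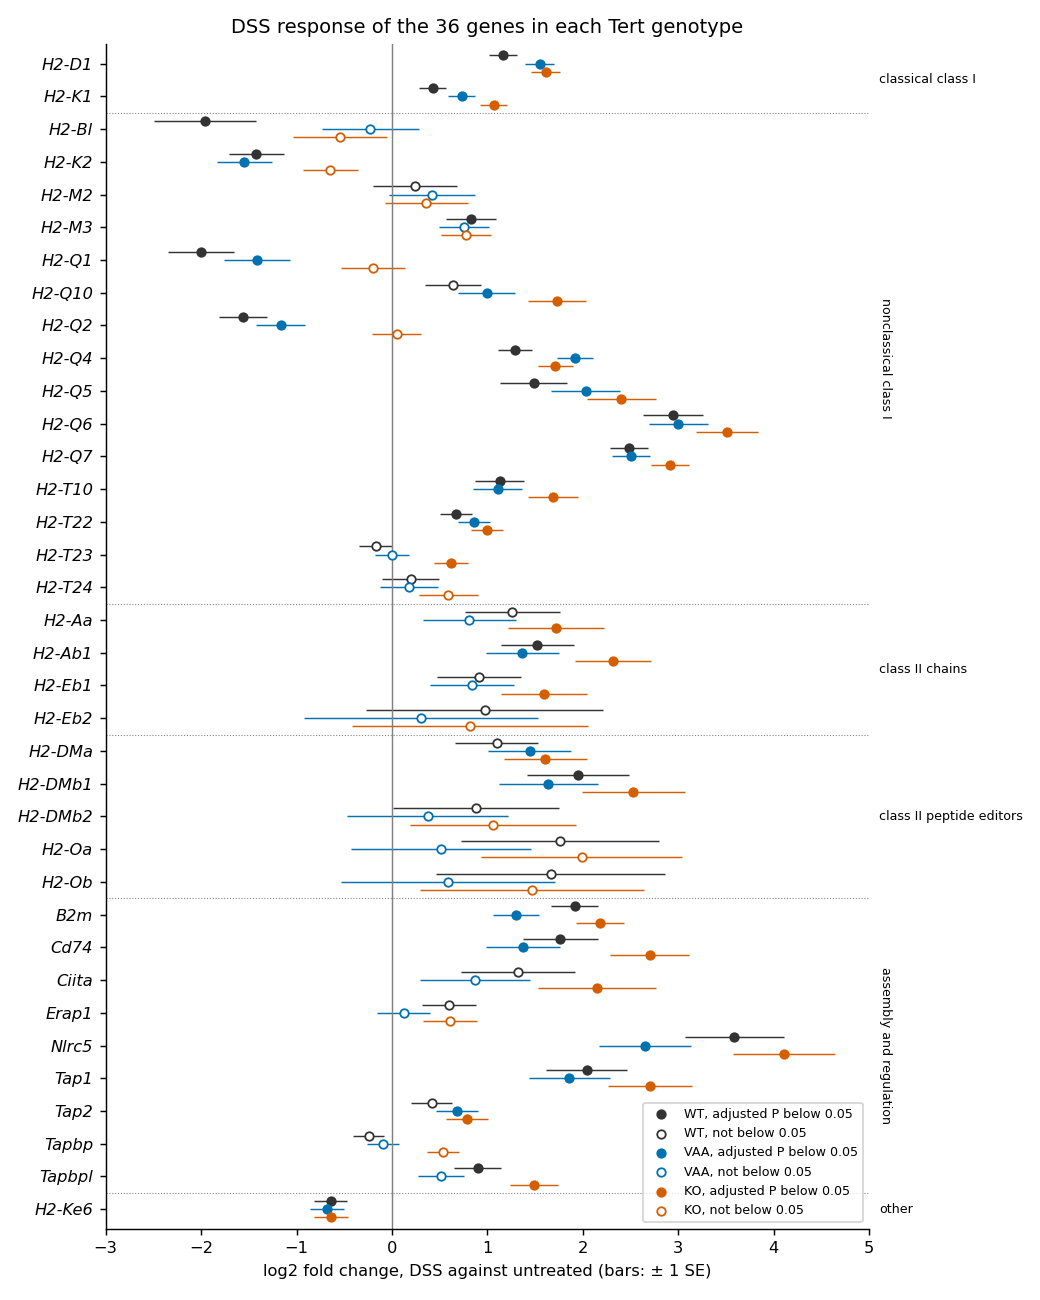
The log2 fold change of each of the 36 genes, DSS against untreated, is plotted for WT (black), VAA (blue) and KO (orange), with bars of 1 SE and filled points where the adjusted *P* was under 0.05. *H2-Q6*, *H2-Q7* and *Nlrc5* lie farthest to the right, *H2-Q1* and *H2-Q2* lie left of 0 in WT and VAA and near 0 in KO, and bars are widest for *H2-Eb2*, *H2-Oa* and *H2-Ob*.

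The classical class I heavy chains rose in all 3 genotypes, *H2-D1* by more than *H2-K1*. *H2-K1* (chromosome 17, 33996017 to 34000347, minus strand, mm10) stood at 418 and 463 CPM in untreated WT, 477 and 419 in untreated VAA, 454 and 527 in untreated KO, 592, 634 and 549 in WT under DSS, 699, 700.4 and 828 in VAA under DSS, and 1140, 899 and 1041 in KO under DSS. Every DSS library was above every untreated one, and the 3 KO DSS libraries were above all others. On the log2 scale, as for all changes below, *H2-K1* rose by 0.42 ± 0.14 in WT (adjusted *P* = 0.039), 0.73 ± 0.14 in VAA (0.0026) and 1.07 ± 0.14 in KO (8e-04). *H2-D1* (chromosome 17, 35262730 to 35267499, plus strand) stood at 336 and 353 CPM in untreated WT, 385 and 331 in untreated VAA, 338 and 388 in untreated KO, 805, 810.3 and 703 in WT under DSS, 1018, 932 and 1191 in VAA under DSS, and 1260, 1015 and 1055 in KO under DSS. Its DSS libraries lay above its untreated ones without overlap, and its WT DSS libraries lay below those of VAA and KO. *H2-D1* rose by 1.17 ± 0.15 in WT (0.00017), 1.55 ± 0.15 in VAA (2.2e-05) and 1.61 ± 0.15 in KO (7.1e-05).

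The ratio of these genes was higher under DSS in each genotype. Untreated, *H2-D1* had 0.736 to 0.807 times the count of *H2-K1* in the 6 libraries. Under DSS the ratio was 1.36, 1.28 and 1.28 in WT, 1.46, 1.33 and 1.44 in VAA, and 1.11, 1.13 and 1.01 in KO. The KO DSS libraries thus lay between the untreated libraries and those of WT and VAA under DSS, with no overlap. Per kb of the longest transcript, untreated WT held a mean of 235 CPM of *H2-K1* and 164 of *H2-D1*, WT under DSS 316 and 368, VAA under DSS 396 and 498, and KO under DSS 548 and 528. Per kb, *H2-D1* was thus above *H2-K1* under DSS in WT and VAA and not in KO. The call of *H2-K1* in WT was lost without WT untreated replicate 1 (log2 fold change 0.34, adjusted *P* = 0.26) or replicate 2 (0.50, 0.098), and without WT DSS replicate 1 (0.42, 0.083) or replicate 2 (0.37, 0.12), and without both male libraries (0.50, 0.1). The share of 31-base words that a gene's transcripts had in common with other genes was 22.8% for *H2-K1* and 26.7% for *H2-D1*, so some reads could have been split between class I genes in counting.

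**Figure D2:**
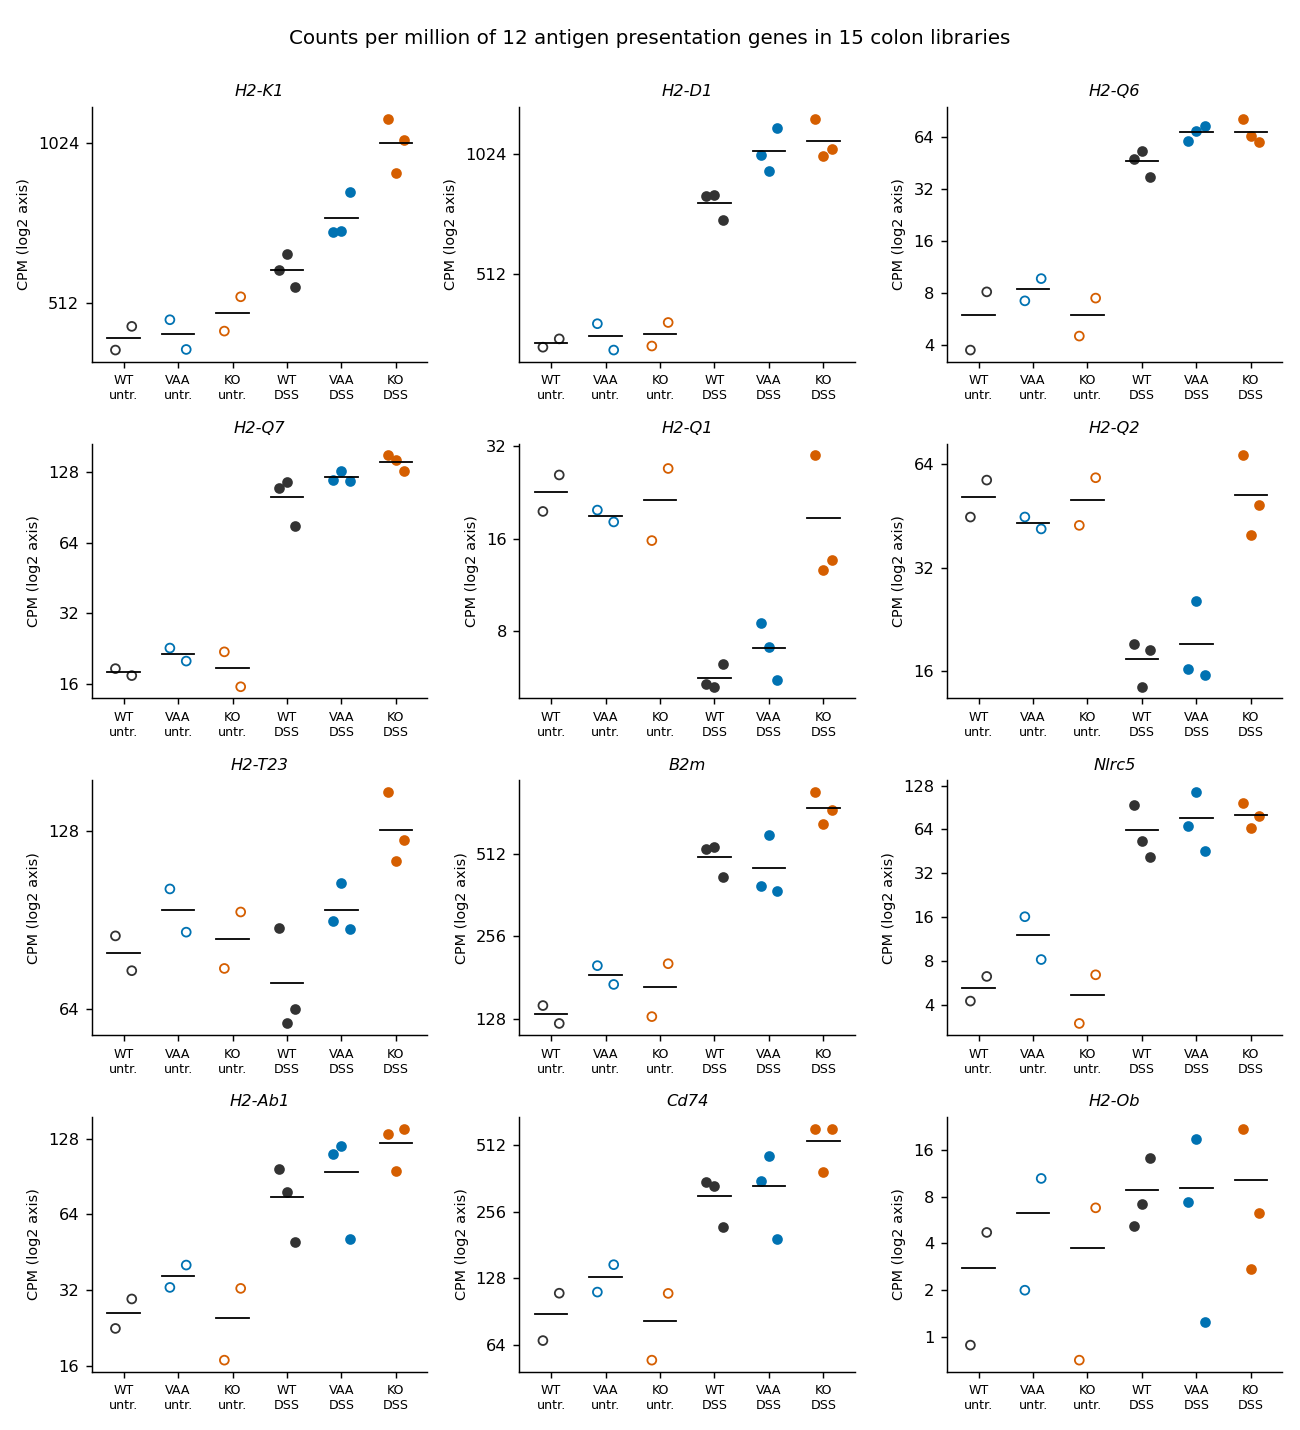
CPM on a log2 axis is plotted for 12 genes in 15 libraries, with open circles untreated, filled circles DSS and a line at the group mean. In *H2-K1*, *H2-D1*, *H2-Q6*, *H2-Q7*, *B2m* and *Nlrc5* all DSS libraries lie above all untreated ones, in *H2-Q1* and *H2-Q2* the WT and VAA DSS libraries lie below the untreated ones, and in *H2-Ob* the spread within groups is as wide as that between them.

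Among the partners of the class I heavy chain, *B2m* and *Tap1* rose in all 3 genotypes, *Tap2* and *Tapbpl* in 2 each, and *Tapbp* and *Erap1* in none. *B2m*, which encodes beta-2 microglobulin (chromosome 2, 122147686 to 122153083, plus strand), stood at 143 and 123 CPM in untreated WT, 200 and 171 in untreated VAA, 130.2 and 203 in untreated KO, 536, 545 and 424 in WT under DSS, 392, 603 and 374 in VAA under DSS, and 863, 658 and 739.9 in KO under DSS. Its lowest DSS library, 374 CPM, was above its highest untreated one, 203 CPM. *B2m* rose by 1.92 ± 0.25 in WT (adjusted *P* = 0.00018), 1.30 ± 0.24 in VAA (0.0018) and 2.18 ± 0.25 in KO (0.00033). *Tap1*, a subunit of the peptide transporter, stood at 19.2 and 20.3 CPM in untreated WT, 38.8 and 19.8 in untreated VAA, 17.1 and 24.6 in untreated KO, 125, 64.0 and 55.4 in WT under DSS, 92.2, 157 and 69.8 in VAA under DSS, and 163, 107 and 137 in KO under DSS. All 9 DSS libraries exceeded the 6 untreated ones, with a log2 fold change of 2.04 ± 0.43 in WT (0.0041), 1.86 ± 0.42 in VAA (0.0069) and 2.70 ± 0.44 in KO (0.0026). The *Tap1* call was lost in VAA without VAA untreated replicate 2 (1.45, 0.093), in KO without KO untreated replicate 1 (2.46, 0.054), and in WT without both male libraries (2.08, 0.051).

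*Tap2*, the other transporter subunit, changed less. It stood at 28.1 and 27.6 CPM in untreated WT, 38.2 and 27.0 in untreated VAA, 32.6 and 36.5 in untreated KO, 47.9, 33.3 and 30.2 in WT under DSS, 52.9, 54.3 and 49.6 in VAA under DSS, and 75.0, 51.8 and 52.5 in KO under DSS. It rose in VAA (0.68 ± 0.22, adjusted *P* = 0.041) and KO (0.79 ± 0.22, 0.037), and its log2 fold change was 0.42 ± 0.22 in WT (0.17). The VAA call was lost without any 1 of 8 libraries (adjusted *P* up to 0.32, without VAA untreated replicate 2) and the KO call without any 1 of 5 (up to 0.22, without KO untreated replicate 1). The 8 were WT untreated replicates 1 and 2, VAA untreated replicate 2, KO untreated replicates 1 and 2, WT DSS replicate 2 and VAA DSS replicates 1 and 2, and the 5 were both untreated libraries of WT and KO and KO DSS replicate 1.

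*Tapbp* encodes tapasin, which bridges TAP and the empty class I molecule. It stood at 183 and 179.5 CPM in untreated WT, 199 and 184 in untreated VAA, 168 and 209.7 in untreated KO, 192, 143 and 125 in WT under DSS, 179, 197 and 163 in VAA under DSS, and 287, 256 and 277 in KO under DSS. Only the KO DSS libraries lay above the untreated ones, and no genotype passed the test: its log2 fold change was -0.24 ± 0.16 in WT (0.29), -0.09 ± 0.16 in VAA (0.75) and 0.53 ± 0.17 in KO (0.057). *Tapbpl*, the tapasin relative TAPBPR that edits class I peptides, stood at 24.4 and 19.6 CPM in untreated WT, 27.7 and 34.1 in untreated VAA, 19.6 and 21.6 in untreated KO, 52.6, 34.6 and 35.9 in WT under DSS, 38.0, 59.8 and 34.3 in VAA under DSS, and 52.9, 58.3 and 62.0 in KO under DSS. It rose in WT (0.90 ± 0.24, 0.017) and KO (1.49 ± 0.25, 0.0031), and its log2 fold change in VAA was 0.51 ± 0.24 (0.15). The WT call of *Tapbpl* was lost without WT untreated replicate 1 (1.05, 0.059) or 2 (0.75, 0.14) or WT DSS replicate 1 (0.68, 0.062), and the KO call without KO untreated replicate 1 (1.42, 0.053). *Erap1* encodes an aminopeptidase that trims peptides for class I, and it stood at 75.2 and 65.5 CPM in untreated WT, 81.7 and 79.2 in untreated VAA, 62.6 and 84.0 in untreated KO, 117, 102 and 100.2 in WT under DSS, 92.4, 124 and 46.2 in VAA under DSS, and 109, 112 and 115 in KO under DSS. Its log2 fold change was 0.60 ± 0.28 in WT (0.13), 0.12 ± 0.28 in VAA (0.81) and 0.61 ± 0.28 in KO (0.19), and none passed.

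*Nlrc5*, the class I coactivator (chromosome 8, 94434356 to 94527272, plus strand), had the highest fold change of the 36 in WT and KO. It stood at 4.24 and 6.26 CPM in untreated WT, 16.1 and 8.17 in untreated VAA, 2.97 and 6.42 in untreated KO, 94.7, 53.7 and 41.1 in WT under DSS, 67.8, 116 and 45.6 in VAA under DSS, and 96.7, 65.9 and 79.1 in KO under DSS. The DSS libraries started at 41.1 CPM and the untreated ones ended at 16.1. The log2 fold change was 3.59 ± 0.52 in WT (adjusted *P* = 0.0004), 2.65 ± 0.48 in VAA (0.0018) and 4.11 ± 0.53 in KO (0.00074), and each call was kept with every library left out in turn, the KO value being 4.76 without KO untreated replicate 2. The class II coactivator *Ciita* stood at 4.37 and 12.4 CPM in untreated WT, 11.2 and 18.5 in untreated VAA, 5.82 and 9.77 in untreated KO, 26.0, 18.7 and 18.6 in WT under DSS, 25.5, 45.7 and 9.40 in VAA under DSS, and 48.5, 19.2 and 35.9 in KO under DSS. Its VAA groups overlapped, and it rose in KO (2.15 ± 0.62, 0.042) with values of 1.32 ± 0.60 in WT (0.12) and 0.87 ± 0.58 in VAA (0.33). The KO call of *Ciita* held without WT untreated replicate 1 or 2, VAA DSS replicate 2 or 3 or KO DSS replicate 2, and was lost without any other single library (adjusted *P* 0.05 to 0.26).

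The nonclassical class I genes moved in both directions in WT and VAA. Of 15 tested, 7 rose and 4 fell in WT, 7 rose and 3 fell in VAA, and 8 rose and 0 fell in KO, beside 14.1%, 10.9% and 5.59% of genes tested that rose and 12.5%, 9.54% and 5.06% that fell. In GENCODE M21 *H2-K2* is a transcribed unprocessed pseudogene, and *H2-Bl*, *H2-Q5* and *H2-T10* are polymorphic pseudogenes. The genes that rose lay mostly in the Q4 to Q7 stretch and the T region, and those that fell in more than 1 genotype were *H2-Q1*, *H2-Q2* and *H2-K2*. *H2-Q6* (chromosome 17, 35424850 to 35430055, plus strand) stood at 3.76 and 8.14 CPM in untreated WT, 7.22 and 9.71 in untreated VAA, 4.52 and 7.49 in untreated KO, 47.5, 52.9 and 37.6 in WT under DSS, 60.6, 68.9 and 73.2 in VAA under DSS, and 81.2, 64.2 and 59.7 in KO under DSS. All DSS libraries were above all untreated ones, with a log2 fold change of 2.95 ± 0.31 in WT (adjusted *P* = 5.2e-05), 3.00 ± 0.31 in VAA (3.1e-05) and 3.51 ± 0.32 in KO (6.3e-05). *H2-Q7*, which encodes a glycolipid-anchored Qa-2 molecule, stood at 18.6 and 17.4 CPM in untreated WT, 22.7 and 20.0 in untreated VAA, 21.9 and 15.6 in untreated KO, 109, 116 and 75.8 in WT under DSS, 118, 129 and 118 in VAA under DSS, and 151, 144 and 129.6 in KO under DSS. Its lowest DSS library was above its highest untreated one, and the log2 fold change was 2.48 ± 0.20 in WT (8.2e-06), 2.51 ± 0.20 in VAA (5.3e-06) and 2.92 ± 0.20 in KO (8.8e-06).

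*H2-Q4* rose in all 3 genotypes. It stood at 36.7 and 33.9 CPM in untreated WT, 40.0 and 31.5 in untreated VAA, 33.5 and 36.7 in untreated KO, 101, 83.4 and 74.1 in WT under DSS, 111, 131 and 164 in VAA under DSS, and 123, 114 and 107 in KO under DSS. Its untreated and DSS libraries did not overlap, and the log2 fold change was 1.29 ± 0.18 in WT (adjusted *P* = 0.00032), 1.92 ± 0.19 in VAA (2e-05) and 1.71 ± 0.18 in KO (0.00021). The calls of *H2-Q4*, *H2-Q6* and *H2-Q7* were kept with each library left out in turn, and the WT value of *H2-Q6* was 3.61 without WT untreated replicate 2. *H2-Q5* rose in all 3 genotypes, by 1.49 ± 0.35 in WT, 2.03 ± 0.36 in VAA and 2.40 ± 0.37 in KO. Its WT call was lost without WT untreated replicate 1 (1.42, 0.077) or replicate 2 (1.54, 0.057). *H2-Q10*, whose secreted product is known chiefly from liver, stood at 8.75 and 8.95 CPM in untreated WT, 11.7 and 5.02 in untreated VAA, 8.73 and 5.92 in untreated KO, 16.0, 12.1 and 13.3 in WT under DSS, 14.9, 18.9 and 16.2 in VAA under DSS, and 26.6, 26.7 and 19.7 in KO under DSS. It rose in VAA (0.99 ± 0.30, 0.032) and KO (1.73 ± 0.31, 0.0042), and its value in WT was 0.64 ± 0.30 (0.13). The VAA call of *H2-Q10* was lost without VAA untreated replicate 2 (0.51) or VAA DSS replicate 2 (0.89, 0.067). Its VAA value was 1.73 without VAA untreated replicate 1. The KO call of *H2-Q10* was lost without KO untreated replicate 2 (1.48) and without both male libraries (1.48). The share of 31-base words found in other genes was 57.8% for *H2-Q5*, 50.3% for *H2-Q6*, 39.1% for *H2-Q7* and 38.4% for *H2-Q4*, so the division of counts among these genes is uncertain.

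*H2-Q1* and *H2-Q2*, which lie side by side between *H2-D1* and *H2-Q4*, fell in WT and VAA. *H2-Q2* stood at 44.9 and 57.5 CPM in untreated WT, 44.9 and 41.5 in untreated VAA, 42.5 and 58.4 in untreated KO, 19.2, 14.4 and 18.4 in WT under DSS, 16.2, 25.7 and 15.5 in VAA under DSS, and 67.9, 39.7 and 48.8 in KO under DSS. The WT and VAA DSS libraries were all below the untreated ones, while those of KO spanned the untreated range. The log2 fold change of *H2-Q2* was -1.56 ± 0.25 in WT (adjusted *P* = 0.00083), -1.17 ± 0.26 in VAA (0.0056) and 0.05 ± 0.25 in KO (0.93). *H2-Q1* stood at 19.6 and 25.8 CPM in untreated WT, 19.8 and 18.1 in untreated VAA, 15.8 and 27.0 in untreated KO, 5.39, 5.29 and 6.25 in WT under DSS, 8.54, 7.11 and 5.56 in VAA under DSS, and 29.8, 12.6 and 13.6 in KO under DSS. Its WT and VAA DSS libraries were also all below the untreated ones. In KO under DSS replicate 1 was the highest library of all. The other KO DSS libraries, at 12.6 and 13.6 CPM, lay below the lowest untreated one, at 15.8 CPM. For *H2-Q1* the log2 fold change was -2.00 ± 0.34 in WT (0.0012), -1.41 ± 0.34 in VAA (0.01) and -0.20 ± 0.34 in KO (0.76). Without VAA untreated replicate 1 the VAA calls of *H2-Q1* (-1.35, 0.071) and *H2-Q2* (-1.11, 0.05) were lost. Together these genes held 19.9% to 28% of the summed nonclassical CPM in the untreated libraries, 4.41% to 6.57% in WT under DSS, 3.57% to 5.39% in VAA under DSS and 8.33% to 12.4% in KO under DSS.

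In the T region, *H2-T23* rose in KO. It encodes Qa-1, which shows leader peptides of other class I chains to NKG2A receptors, and it stood at 85.0 and 74.2 CPM in untreated WT, 102 and 86.2 in untreated VAA, 74.8 and 93.3 in untreated KO, 87.6, 60.4 and 63.9 in WT under DSS, 90.1, 104 and 87.3 in VAA under DSS, and 149, 114 and 124 in KO under DSS. The 3 KO DSS libraries were the highest of all 15, and the log2 fold change was 0.62 ± 0.18 in KO (adjusted *P* = 0.045), -0.17 ± 0.18 in WT (0.5) and 0.00 ± 0.18 in VAA (0.99). The KO call of *H2-T23* was lost without any 1 of 11 libraries, with adjusted *P* up to 0.31 without KO untreated replicate 1, and was kept without WT DSS replicate 1 or 2 or VAA DSS replicate 2 or 3. *H2-T22* stood at 33.1 and 38.1 CPM in untreated WT, 37.3 and 37.3 in untreated VAA, 35.0 and 45.8 in untreated KO, 64.1, 57.0 and 49.1 in WT under DSS, 66.6, 68.1 and 67.6 in VAA under DSS, and 94.3, 66.0 and 80.7 in KO under DSS. Its DSS libraries lay above its untreated ones, and it rose by 0.67 ± 0.17 in WT (0.011), 0.85 ± 0.17 in VAA (0.0029) and 0.99 ± 0.17 in KO (0.0033). The near copy *H2-T10* rose by 1.13 ± 0.26, 1.11 ± 0.26 and 1.68 ± 0.26, and 47.6% of its 31-base words were found in *H2-T22*. The products of both are known ligands of gamma delta T cells. Of the 31-base words of *H2-T23*, 24.5% were found in other genes. The WT calls of *H2-T22* (0.56, 0.12) and *H2-T10* (0.90, 0.098) were lost without WT untreated replicate 1. The KO call of *H2-T22* was lost without KO untreated replicate 1 (0.81, 0.064), and the VAA call of *H2-T10* without VAA untreated replicate 1 (1.04, 0.084) or 2 (1.16, 0.051).

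The remaining nonclassical genes moved in both directions. *H2-K2*, next to *H2-K1*, fell in WT (-1.42 ± 0.29, adjusted *P* = 0.0032) and VAA (-1.55 ± 0.29, 0.0021), and its value was -0.65 ± 0.29 in KO (0.17). Its VAA call was lost without VAA untreated replicate 1 (-0.93, 0.065). *H2-M3*, which presents formylated bacterial peptides, rose in WT (0.82 ± 0.26, 0.034), with 0.75 ± 0.26 in VAA (0.059) and 0.77 ± 0.26 in KO (0.078). The WT call of *H2-M3* was lost without WT untreated replicate 1 (0.56, 0.29) or WT DSS replicate 1 (0.81, 0.075), 2 (0.81, 0.082) or 3 (0.85, 0.056). *H2-Bl* was under 1 CPM in every library and fell in WT (-1.96 ± 0.54, 0.017), a call lost without WT untreated replicate 1 (-2.09, 0.067) or 2 (-1.84, 0.1) or WT DSS replicate 3 (-1.69, 0.059). *H2-T24* and *H2-M2* passed in no genotype.

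**Figure D3:**
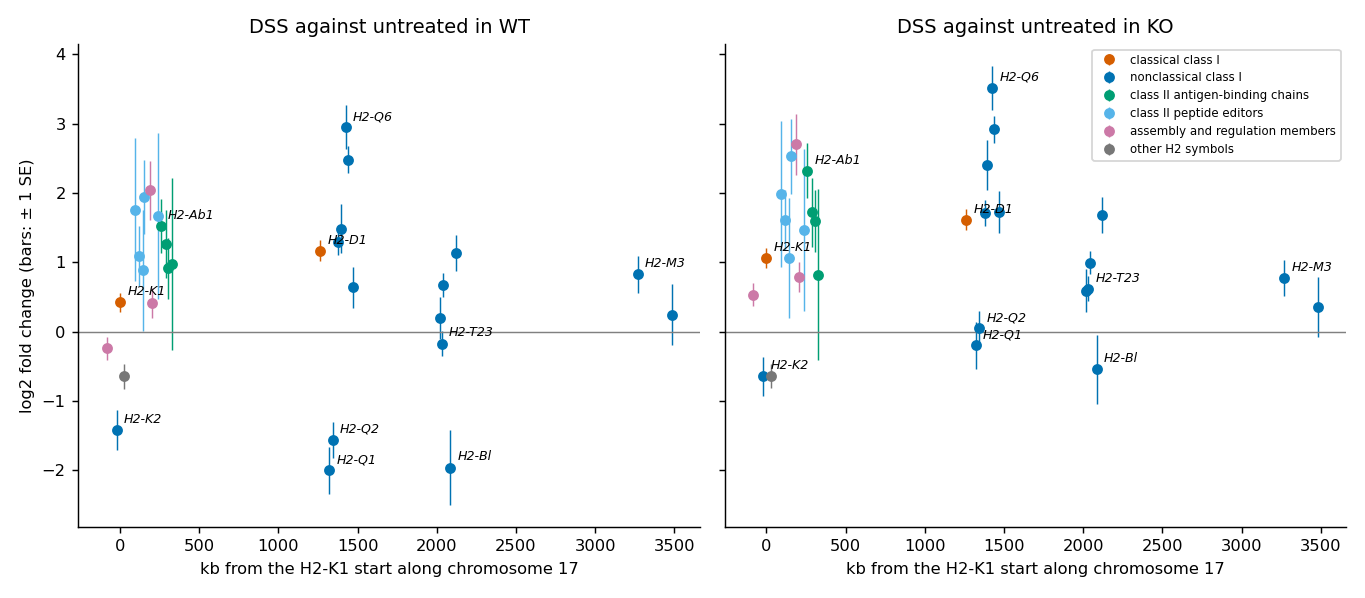
The log2 fold change, DSS against untreated, of the members on chromosome 17 in WT and KO is plotted against the distance in kb from the start of *H2-K1*. *H2-Q1* and *H2-Q2*, at 1320.1 and 1341.9 kb, lie below 0 in WT, and *H2-Q4* to *H2-Q7*, from 1379.3 to 1438.8 kb, lie above 0 in both genotypes.

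The direction thus turned over a short distance. In WT, *H2-D1* at 1262.4 kb rose, *H2-Q1* and *H2-Q2* fell, and *H2-Q4* at 1379.3 kb rose. At the other end, *H2-K2* at -21.5 kb fell and *H2-K1* rose. The plot of fold change by position shows these neighbours on opposite sides of 0 in WT. The share of 31-base words found in other genes was 23.7% for *H2-Q1*, 32.2% for *H2-Q2* and 16.6% for *H2-K2*. Some of their reads could thus have been split between genes in counting.

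The class II chains are I-A alpha and beta (*H2-Aa*, *H2-Ab1*) and I-E beta (*H2-Eb1*, with *H2-Eb2* a related beta chain gene). Of 4 tested, 1 rose in WT, 1 in VAA and 3 in KO (14.1%, 10.9% and 5.59% of genes tested). The I-E alpha chain symbol, *H2-Ea-ps*, was not a member and had at most 3 counts in any library. RNA of *H2-Eb1* is thus no measure of I-E molecules. *H2-Ab1* stood at 22.6 and 29.5 CPM in untreated WT, 32.8 and 40.3 in untreated VAA, 16.9 and 32.5 in untreated KO, 96.6, 78.2 and 49.9 in WT under DSS, 111, 119.6 and 51.2 in VAA under DSS, and 134, 95.6 and 140.2 in KO under DSS. All its DSS libraries were above its untreated ones, and it rose by 1.52 ± 0.39 in WT (adjusted *P* = 0.012), 1.37 ± 0.38 in VAA (0.021) and 2.32 ± 0.40 in KO (0.0036). *H2-Aa* stood at 36.7 and 57.2 CPM in untreated WT, 54.8 and 83.3 in untreated VAA, 26.2 and 77.0 in untreated KO, 122, 118 and 97.95 in WT under DSS, 122, 187 and 53.1 in VAA under DSS, and 200.4, 117 and 192 in KO under DSS. VAA DSS replicate 3 lay below both untreated VAA libraries, and *H2-Aa* rose in KO (1.72 ± 0.50, 0.045), with 1.26 ± 0.49 in WT (0.076) and 0.81 ± 0.48 in VAA (0.27). *H2-Eb1* stood at 21.6 and 39.3 CPM in untreated WT, 30.5 and 51.8 in untreated VAA, 16.5 and 40.0 in untreated KO, 66.7, 63.1 and 42.2 in WT under DSS, 87.8, 88.9 and 43.3 in VAA under DSS, and 91.7, 55.6 and 108 in KO under DSS. It rose in KO (1.59 ± 0.45, 0.04), with 0.91 ± 0.44 in WT (0.14) and 0.84 ± 0.44 in VAA (0.2). *H2-Eb2* ranged from 0.273 to 8.45 CPM and passed in no genotype.

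These class II calls rested on few libraries. The *H2-Ab1* call was lost in WT without WT untreated replicate 1 (1.33, 0.12) or 2 (1.73, 0.053) and in KO without KO untreated replicate 1 (1.92, 0.065). In VAA it was lost without VAA untreated replicate 1 (1.22, 0.17) or 2 (1.52, 0.087) or VAA DSS replicate 1 (1.23, 0.06) or 2 (1.16, 0.052). The KO call of *H2-Aa* was kept without KO untreated replicate 2, VAA DSS replicate 2 or VAA DSS replicate 3 and lost without any 1 of the other 12 libraries (adjusted *P* 0.054 to 0.3). The KO call of *H2-Eb1* was lost without KO untreated replicate 1, WT DSS replicate 1 or 2 or KO DSS replicate 1 or 3 (0.052 to 0.29). Without KO untreated replicate 2 the KO values were 2.70 for *H2-Aa* and 2.37 for *H2-Eb1*.

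*Cd74*, the invariant chain that fills the class II groove until the endosome is reached, rose in all 3 genotypes. It stood at 67.1 and 109.8 CPM in untreated WT, 111 and 148 in untreated VAA, 54.7 and 109.6 in untreated KO, 349, 334 and 219 in WT under DSS, 354, 456 and 193 in VAA under DSS, and 607, 388 and 606 in KO under DSS. The DSS libraries were all above the untreated ones, and it rose by 1.77 ± 0.40 in WT (adjusted *P* = 0.0062), 1.37 ± 0.39 in VAA (0.024) and 2.70 ± 0.42 in KO (0.0019). The WT call was lost without WT untreated replicate 1 (1.44, 0.089), and the VAA call without VAA untreated replicate 1 (1.18, 0.19) or 2 (1.59, 0.08) or VAA DSS replicate 1 (1.33, 0.053) or 2 (1.08, 0.061). Without KO untreated replicate 2 the KO value was 3.29.

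The editors of class II peptides are DM, which exchanges CLIP for peptide, and DO, which restrains DM and is known from B cells. Of the 5 genes, 1 rose in WT, 2 in VAA and 2 in KO, beside 14.1%, 10.9% and 5.59% of genes tested. *H2-DMb1* stood at 2.67 and 4.04 CPM in untreated WT, 5.29 and 4.51 in untreated VAA, 1.62 and 6.49 in untreated KO, 16.5, 11.6 and 10.7 in WT under DSS, 15.9, 22.9 and 6.62 in VAA under DSS, and 21.8, 22.4 and 25.6 in KO under DSS. It rose by 1.95 ± 0.54 in WT (adjusted *P* = 0.018), 1.64 ± 0.52 in VAA (0.04) and 2.53 ± 0.54 in KO (0.012), with no overlap between untreated and DSS libraries. *H2-DMa* stood at 3.62 and 4.91 CPM in untreated WT, 3.36 and 5.53 in untreated VAA, 3.04 and 6.92 in untreated KO, 11.7, 10.3 and 5.54 in WT under DSS, 13.7, 15.2 and 7.004 in VAA under DSS, and 15.5, 12.6 and 17.3 in KO under DSS. It rose in VAA (1.44 ± 0.44, 0.032) and KO (1.61 ± 0.43, 0.033), with 1.10 ± 0.43 in WT (0.077). The WT call of *H2-DMb1* was lost without WT untreated replicate 1 or 2 or WT DSS replicate 1 (adjusted *P* 0.051 to 0.15), its KO call without KO untreated replicate 1 (1.84, 0.11), and its VAA call without any 1 of 11 libraries (0.051 to 0.2), being kept without KO untreated replicate 1 or 2, WT DSS replicate 1 or VAA DSS replicate 3. For *H2-DMa* the VAA call was lost without either untreated VAA library or VAA DSS replicate 1 or 2 (0.067 to 0.25), and the KO call without KO untreated replicate 1 or any 1 KO DSS library (0.055 to 0.26). Without KO untreated replicate 2 the KO values were 3.84 for *H2-DMb1* and 2.32 for *H2-DMa*.

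*H2-DMb2*, *H2-Oa* and *H2-Ob* passed in no genotype. *H2-Ob*, the DO beta chain, stood at 0.888 and 4.71 CPM in untreated WT, 2.00 and 10.47 in untreated VAA, 0.711 and 6.78 in untreated KO, 5.18, 7.12 and 14.2 in WT under DSS, 7.40, 18.8 and 1.25 in VAA under DSS, and 21.9, 2.73 and 6.32 in KO under DSS. Replicates of a group differed by as much as groups did, and its log2 fold change was 1.66 ± 1.20 in WT (adjusted *P* = 0.33), 0.59 ± 1.12 in VAA (0.77) and 1.47 ± 1.17 in KO (0.46). *H2-DMb2* stood at 2.32 and 5.05 CPM in untreated WT, 3.72 and 7.83 in untreated VAA, 1.49 and 6.71 in untreated KO, 6.49, 5.52 and 8.37 in WT under DSS, 4.75, 15.1 and 2.21 in VAA under DSS, and 16.7, 2.25 and 6.54 in KO under DSS. The same libraries were high and low as for *H2-Ob* within the VAA and KO groups under DSS. Of the 31-base words of *H2-DMb2*, 29.7% were found in *H2-DMb1*, and 31.4% of those of *H2-DMb1* in *H2-DMb2*. The division of counts between these 2 genes is thus uncertain. *H2-Oa*, the DO alpha chain, ranged from 0.129 to 4.74 CPM.

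**Figure D4:**
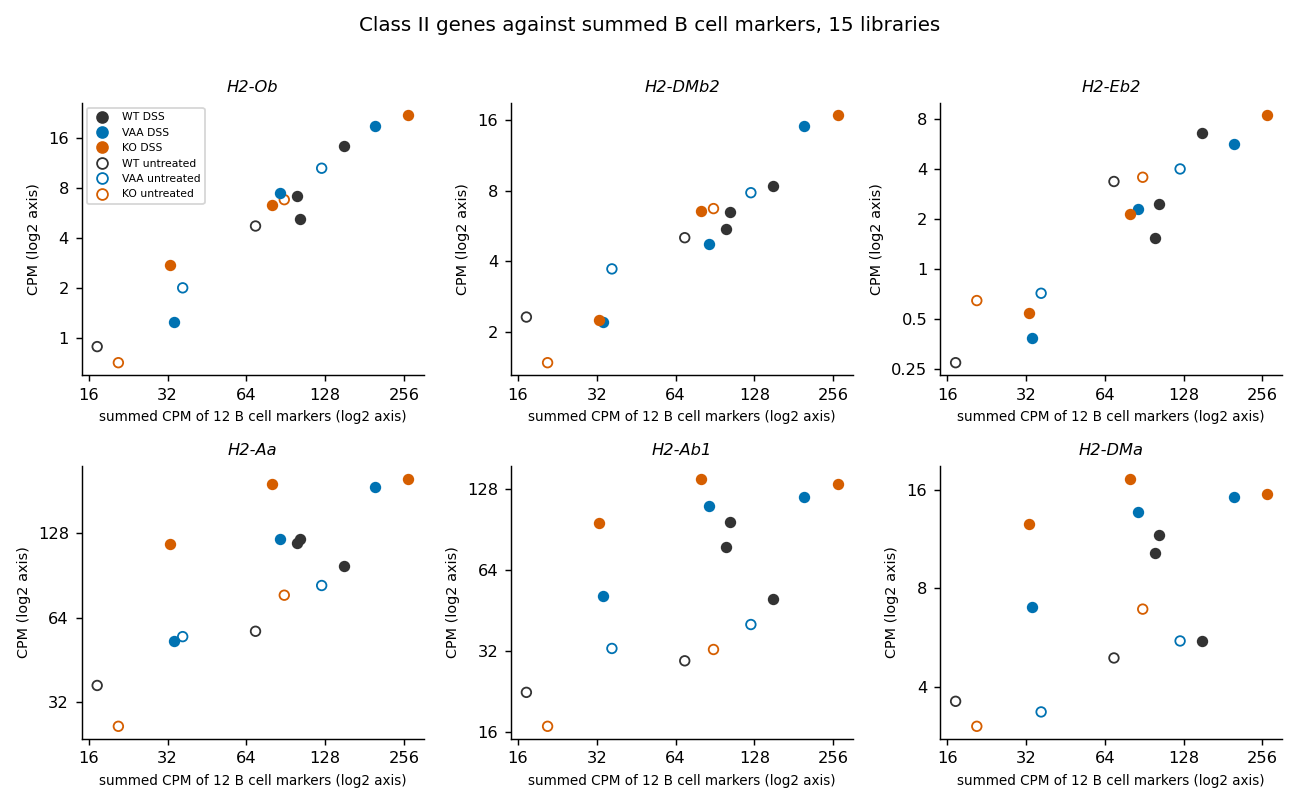
CPM of 6 class II genes in 15 libraries is plotted against the summed CPM of 12 B cell markers, both on log2 axes. *H2-Ob*, *H2-DMb2* and *H2-Eb2* climb with the marker sum, and *H2-Ab1* and *H2-DMa* follow it less closely.

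Over the 9 DSS libraries, levels of 11 class II genes were set against the summed CPM of 12 B cell markers, which ran from 32.73 to 266.3. Pearson's r by exact permutation, adjusted over the 11 relations, was 0.981 for *H2-DMb2* (raw *P* = 7.7e-05, adjusted *P* = 0.00085). It was 0.967 for *H2-Eb2* (raw 0.00026, adjusted 0.00097), 0.955 for *H2-Ob* (0.00019, 0.00097) and 0.903 for *H2-Oa* (0.00085, 0.0023). Spearman's rho for these 4 was 0.883, 0.917, 0.867 and 0.867, each with an adjusted permutation *P* of 0.012. For *H2-Ab1*, *H2-Eb1*, *Cd74*, *H2-DMb1* and *H2-DMa* r was 0.351, 0.444, 0.424, 0.337 and 0.229, with adjusted permutation *P* of 0.35 to 0.56. *Ciita* gave r = 0.75 (0.045 by exact permutation) and rho = 0.533 (0.32), and *H2-Aa* r = 0.655 (0.099). Both measures were taken as log2 CPM. Without the 2 libraries farthest from the median on that scale, KO DSS replicate 2 and VAA DSS replicate 3, r was 0.946 for *H2-DMb2*, 0.906 for *H2-Eb2*, 0.936 for *H2-Ob*, 0.891 for *H2-Oa* and 0.546 for *Ciita*. Without the 2 farthest in CPM, KO DSS replicate 1 and VAA DSS replicate 2, these were 0.97, 0.956, 0.921, 0.831 and 0.497. Each genotype held only 3 DSS libraries, so no value within a genotype was computed, and the difference between genes in r was not tested. The permutations moved values freely across genotypes, so *P* takes no account of genotype. Relations to the markers of other cell types were not computed.

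Between genotypes under DSS, some class I genes stood higher in KO: 2 of 2 classical and 3 of 15 nonclassical genes against WT, and 1 of 2 and 2 of 15 against VAA. Against WT, 6 members were higher and 0 lower (3.21% of genes tested were higher, and 5.67% passed in either direction): *H2-K1*, *H2-D1*, *H2-Q1*, *H2-Q2*, *H2-T23* and *Tapbp*. The log2 difference was 1.59 ± 0.24 for *H2-Q2* (edgeR adjusted *P* = 0.004), 1.72 ± 0.32 for *H2-Q1* (0.011), 0.80 ± 0.12 for *H2-K1* (0.005), 0.87 ± 0.16 for *H2-T23* (0.011), 0.83 ± 0.15 for *Tapbp* (0.0095) and 0.52 ± 0.13 for *H2-D1* (0.034). KO and WT libraries did not overlap for 20 of the 36, all higher in KO, where 16.4% of genes tested were higher and 19.5% lower without overlap. The calls of *H2-K1* and *H2-Q2* were kept with each library left out. *H2-Q1* was lost without WT DSS replicate 1 (1.69, 0.051) or 2 (1.68, 0.068), *H2-T23* without WT DSS replicate 2 (0.77, 0.068) or KO DSS replicate 1 (0.75, 0.05), and *Tapbp* without WT DSS replicate 2 (0.78, 0.062). *H2-D1* was lost without WT untreated replicate 2 or any 1 of the 6 WT and KO DSS libraries (adjusted *P* 0.052 to 0.14). No class II chain or editor passed, and their 9 log2 differences ran from 0.044 to 0.846.

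Against VAA under DSS, 5 members were higher in KO and 0 lower (6.01% of genes tested were higher and 9.41% lower): *H2-K1*, *H2-Q1*, *H2-Q2*, *B2m* and *Tapbp*. The log2 difference was 1.44 ± 0.23 for *H2-Q2* (edgeR adjusted *P* = 0.0023), 1.39 ± 0.32 for *H2-Q1* (0.011), 0.72 ± 0.21 for *B2m* (0.031), 0.60 ± 0.15 for *Tapbp* (0.016) and 0.47 ± 0.12 for *H2-K1* (0.023). Groups did not overlap for 10 of 36, all higher in KO, where 13.8% of genes tested were higher and 14.6% lower without overlap. *H2-K1* was lost without VAA DSS replicate 1 (0.42, 0.068) or KO DSS replicate 1 (0.39, 0.089) or 3 (0.46, 0.064). *B2m* was lost without VAA DSS replicate 1 (0.62, 0.096) or 3 (0.61, 0.085) or KO DSS replicate 1 (0.63, 0.11) or 3 (0.74, 0.068), and *Tapbp* without KO DSS replicate 1 (0.58, 0.051). These differences share the KO libraries with those against WT.

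Marker sums also differed between these groups. The 12 epithelial markers summed to 13420 to 15790 CPM in KO under DSS, 10580 to 11290 in WT and 9593 to 11750 in VAA. The 10 neutrophil markers summed to 115.9 to 157 CPM in KO, 362.4 to 433.3 in WT and 411.9 to 797 in VAA. The 10 T cell markers summed to 38.33 to 46.66 CPM in KO, 24.41 to 31.78 in WT and 24.66 to 37.33 in VAA. The 12 macrophage and monocyte markers summed to 233 to 317 CPM in KO, 284.5 to 499.9 in WT and 402 to 570.5 in VAA. Of these 12, 4 were lower in KO than in VAA, where 9.41% of genes tested were lower. The 10 endothelial markers summed to 66.4 to 78.7 CPM in KO, 76.2 to 111 in WT and 86.6 to 316 in VAA. Of these 10, 6 were lower in KO than in VAA, beside the same 9.41%. No marker of these 5 lists was at 0 in every library of a DSS group, and their part in the class I differences was not tested.

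Between VAA and WT under DSS edgeR called 0 of 36 members (0.00572% of genes tested), with 7 at an unadjusted *P* under 0.05, and DESeq2 and limma also called 0. Groups did not overlap for 8 members, all higher in VAA (8.76% of genes tested were higher and 7.92% lower). Among those 7, *H2-Q4* differed by 0.65 ± 0.15 and *H2-D1* by 0.44 ± 0.13 (adjusted *P* = 0.28 for both). Without VAA DSS replicate 2, 2 members passed, *H2-D1* (0.52, 0.049) and *H2-Q4* (0.67, 0.048). In untreated colon edgeR called 0 of 36 in each genotype comparison (0% of genes tested), as did DESeq2 and limma. Untreated libraries did not overlap for 10 members higher and 0 lower in VAA than in WT (14.6% and 15.4% of genes tested), 1 higher and 1 lower in KO than in WT (15.4% and 15.8%), and 0 higher and 5 lower in KO than in VAA (14.6% and 13.6%). At an unadjusted *P* under 0.05 there were 1 member for VAA against WT (*Nlrc5*, 1.22 ± 0.53), 0 for KO against WT and 2 for KO against VAA (*Nlrc5*, -1.38 ± 0.54, and *Tapbpl*, -0.58 ± 0.26).

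The DSS effect itself was then compared between genotypes. edgeR called 0 of 36 in each of these 3 comparisons, where it called 0%, 0% and 0.0687% of genes tested (0.0458% lower, for KO against VAA), and limma called 0. At an unadjusted *P* under 0.05 there were 2 members for VAA against WT, 7 for KO against WT and 9 for KO against VAA, and DESeq2 called 0, 1 and 0. The DSS effect on *H2-Q2* in KO exceeded that in WT by 1.61 ± 0.36 on the log2 scale (95% interval 0.82 to 2.39, edgeR adjusted *P* = 0.23), and this was the gene DESeq2 called. For *H2-Q1* the excess was 1.81 ± 0.49 (0.76 to 2.86, 0.28) and for *H2-K1* 0.64 ± 0.20 (0.22 to 1.06, 0.32). A fall of *H2-Q1* and *H2-Q2* that passed in WT and VAA and not in KO was therefore not shown by edgeR to differ between genotypes.

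**Figure D5:**
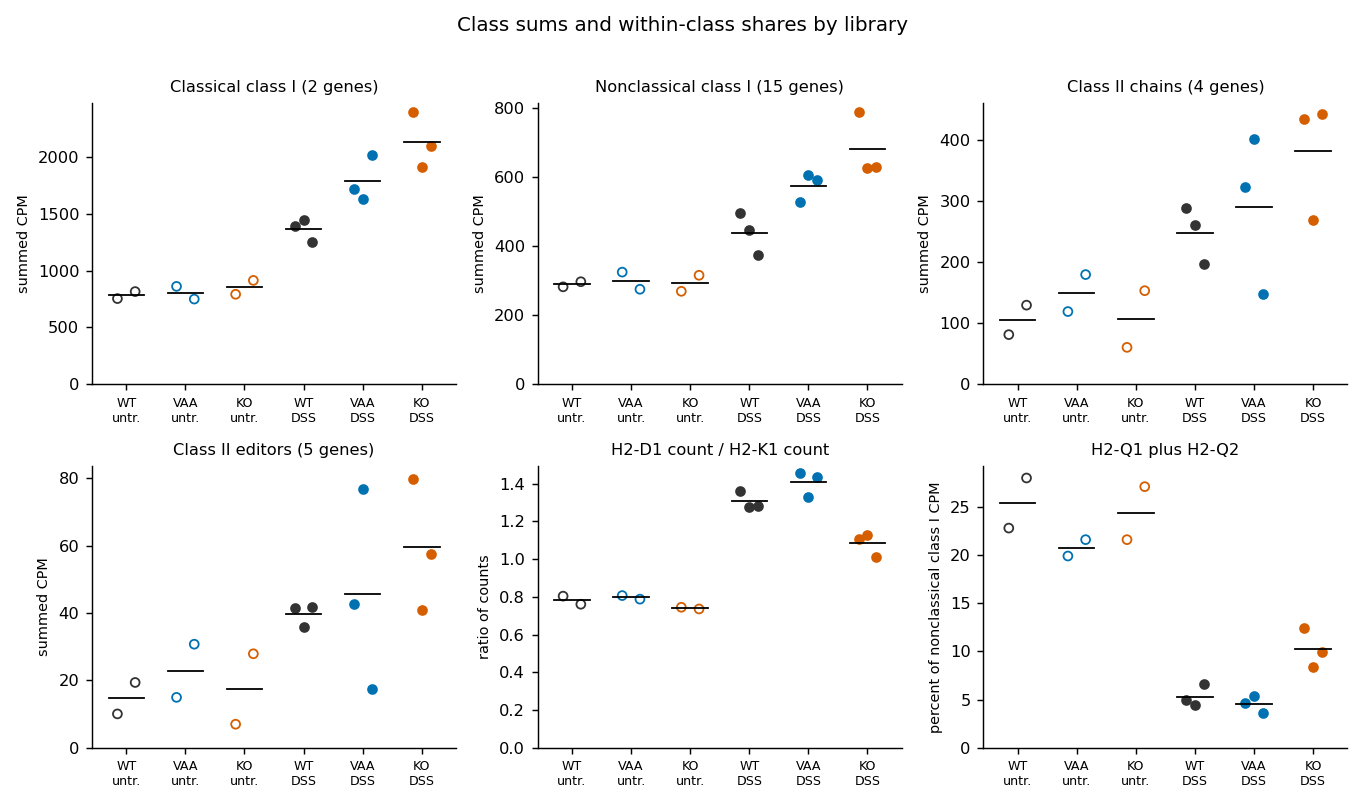
Summed CPM of the classical class I, nonclassical class I, class II chain and class II editor genes is plotted by library in the 6 groups, with the *H2-D1* to *H2-K1* count ratio and the percent of nonclassical CPM held by *H2-Q1* and *H2-Q2*. Sums of both class I classes under DSS lie above all untreated libraries, and the ratio and percent of KO under DSS lie between the untreated libraries and the other DSS groups.

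Sums over the genes of a class follow. Classical class I summed to 785 ± 43.7 CPM (SD, n = 2) in untreated WT, 806 ± 79.1 in VAA and 854 ± 86.4 in KO, and 1364 ± 101 (n = 3), 1789 ± 204 and 2137 ± 245 under DSS. The nonclassical sum was 289.8 ± 10.46, 300.2 ± 35.2 and 293 ± 32.9 CPM untreated and 439.6 ± 61.6, 577 ± 41.6 and 683 ± 93.3 under DSS. Class II chains summed to 105 ± 34.2, 149 ± 42.9 and 107 ± 65.7 CPM untreated and 248 ± 46.9, 291 ± 130 and 382 ± 97.8 under DSS. Editors summed to 14.7 ± 6.60, 22.8 ± 11.2 and 17.4 ± 14.8 CPM untreated and 39.8 ± 3.36, 45.6 ± 29.8 and 59.5 ± 19.6 under DSS. The ratio of group means, DSS over untreated, was 1.74, 2.22 and 2.5 for classical class I in WT, VAA and KO, 1.52, 1.92 and 2.33 for nonclassical class I, and 2.36, 1.95 and 3.58 for class II chains. The class II chain ratio in KO was 6.34 without KO untreated replicate 2 and 2.49 without replicate 1. In VAA it was 1.58 without VAA DSS replicate 2 and 1.62 without VAA untreated replicate 1, below the nonclassical ratios of 1.87 and 2.09 for those libraries.

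Other genes of the pathway were read from lists written beside the members, whose counts stand beside 14.1% of genes tested that rose and 12.5% that fell in WT, 10.9% and 9.54% in VAA, and 5.59% and 5.06% in KO. For KO against WT under DSS the shares were 3.21% higher and 2.46% lower, and for KO against VAA 6.01% and 9.41%. Of 17 genes that supply and load class I peptides, 12 rose in WT, 8 in VAA and 7 in KO, and 0 fell. In KO the immunoproteasome subunits rose, *Psmb9* by 2.62 ± 0.40 (edgeR adjusted *P* = 0.0019), *Psmb8* by 2.41 ± 0.34 (0.0012) and *Psmb10* by 1.46 ± 0.24 (0.0026). In WT the peptidase *Thop1* rose by 1.07 ± 0.14 (0.00017). Under DSS 0 of the 17 were higher and 2 lower in KO than in WT, *Blmh* (-0.50 ± 0.12, 0.033) and *Psme3* (-0.53 ± 0.14, 0.044), and 0 were higher and 1 lower in KO than in VAA, *Thop1* (-0.46 ± 0.12, 0.019). Of 13 genes of the interferon gamma axis, 4 rose and 1 fell in WT, 3 rose and 1 fell in VAA, and 3 rose in KO. The feedback inhibitor *Socs1* rose by 3.47 ± 0.60 in WT (0.0012). Of 9 factors that bind class II promoters, 1 rose and 1 fell in WT, *Nfyb* by 0.45 ± 0.16 (0.048) and *Rfxank* by -0.79 ± 0.14 (0.0018), and 0 passed in KO. Of 12 endosomal genes 2 rose and 1 fell in WT and in VAA, and 1 rose and 1 fell in KO. Under DSS 1 was higher in KO than in WT, the cathepsin gene *Ctse* (1.97 ± 0.41, 0.018). In KO against WT under DSS 1 of the 13 interferon genes was higher, *Irf2* (0.61 ± 0.15, 0.033), and 0 of the 9 class II promoter factors passed. In KO against VAA under DSS 0 of the 13 interferon genes were higher and 1 was lower. In that comparison 1 of the 9 promoter factors was higher, and 1 endosomal gene was higher and 2 were lower.

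Receptors and costimulators act beside MHC molecules at the contact of T cell and presenting cell. Of 12 genes listed as receptors of MHC molecules or their relatives, 7 rose in WT, 5 in VAA and 6 in KO. Among them was the CD8 beta chain *Cd8b1* in KO (3.75 ± 0.63, edgeR adjusted *P* = 0.0031). Under DSS 3 of the 12 were lower in KO than in WT (2.46% of genes tested were lower): *Pirb* (-1.27 ± 0.23, 0.0095), *Lilr4b* (-1.77 ± 0.37, 0.018) and *Lilrb4a* (-1.61 ± 0.34, 0.02). Of 9 costimulation genes 4 rose in WT, 3 in VAA and 0 in KO, and *Icam1* (-1.49 ± 0.29, 0.014) and *Cd80* (-1.05 ± 0.28, 0.043) were lower in KO than in WT under DSS. Of 12 class I-like genes outside the MHC, 1 rose and 1 fell in WT, 3 rose and 1 fell in VAA, and 0 passed in KO. Of 92 other genes of the MHC region, 22 rose and 2 fell in WT, 24 rose and 0 fell in VAA, and 13 rose and 1 fell in KO, with medians of 0.279, 0.279 and 0.165. For KO against VAA under DSS, 1 listed receptor gene was higher and 3 were lower, and 2 costimulation genes were lower. Of the other genes of the region 3 were higher and 10 lower, beside 6.01% and 9.41% of genes tested.

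The member that fell in all 3 genotypes, as 2.63% of genes tested did, was *H2-Ke6*, which carries an H2 symbol for its position and encodes a steroid dehydrogenase. It stood at 16.9 and 15.3 CPM in untreated WT, 15.7 and 18.5 in untreated VAA, 16.2 and 16.9 in untreated KO, 10.9, 9.65 and 10.4 in WT under DSS, 9.39, 10.3 and 12.4 in VAA under DSS, and 12.6, 9.07 and 10.3 in KO under DSS. All DSS libraries were below all untreated ones, and it fell by 0.64 ± 0.18 on the log2 scale in WT (adjusted *P* = 0.018), 0.68 ± 0.18 in VAA (0.015) and 0.64 ± 0.18 in KO (0.037). Its KO call was lost without any 1 of 7 libraries (adjusted *P* 0.051 to 0.15), namely both untreated WT and KO libraries, WT DSS replicate 1 and KO DSS replicates 2 and 3. Its WT call was lost without WT untreated replicate 1 or 2 or WT DSS replicate 2 (0.058 to 0.13), and its VAA call without VAA untreated replicate 2 or VAA DSS replicate 1 (0.055 to 0.13). The overlapping gene Gm20427 held 76.1% of its 31-base words.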

How the data were processed

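Colon RNA was sequenced from 15 libraries (total RNA, paired-end), 2 untreated and 3 DSS per genotype. The authors' deposited table holds estimated counts per gene symbol, made with kallisto 0.46 on mm10 per the submitters' processing notes, with the annotation not given in the sources used here. A deposited table of log2 CPM defined the members and was recomputed from the counts to within 0.017 with a prior count of 2. Counts were tested with edgeR 4.0.16 (R 4.3.3; TMM scaling, filterByExpr, quasi-likelihood F test) in one fit of 6 groups, giving 12 comparisons adjusted by Benjamini-Hochberg over 17477 genes at 0.05. CPM and CPM per kb of the longest transcript were computed from the counts. DESeq2 1.42.0 and limma 3.58.1 (on the deposited log2 values) were alternatives, beside other scaling, no filter, a replicate block, only the groups compared and each library left out. Sex as a covariate, the fit without the male libraries, class ratios and the count over all 3 genotypes with libraries left out, and correlations without the 2 libraries farthest in CPM were added after the data were seen.

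Members and lists were chosen with earlier results of these data known. Values per library are given for the classical class I genes, the 8 most abundant nonclassical genes, the class II genes, the 9 assembly and regulation genes and every member called between genotypes; from other lists at most 3 genes per comparison were named by smallest *P*. *H2-Q5*, *H2-T10*, *H2-K2*, *H2-M3*, *H2-Bl* and *H2-Ke6* were described after their values were seen. Shared 31-base words were counted in GENCODE M21 transcripts. No source used here says whether counting used strand, so reads of *B2m* and *Patl2*, and of *Tap1* and *Psmb9*, which overlap on opposite strands, may not be told apart. Replicate numbers were not used to pair libraries in the main fit. Of 33 equally numbered pairs, 8 had a residual correlation over 0.1, and the highest was 0.31. In each untreated genotype replicate 2 exceeded replicate 1 in summed B cell markers and class II chains. Pairing by number can therefore not be excluded. The result for 1 gene of the other lists is not reported here.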

Additional observations from a re-analysis of the deposited data

How the results depend on the processing

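Across 23 alternatives and 12 comparisons, 7503 of 7727 values for the 28 members named with values in every library kept their side of the threshold and direction, 155 lost and 69 gained a call, and 0 reversed. The other 8 members are not in this tally. With only the groups compared in the fit, DSS calls in VAA were 9 (21 as reported), KO against VAA under DSS 2 (5) and KO against WT under DSS 15 (6). DESeq2 gave 10 for KO against WT under DSS, and 1 for the DSS effect in KO against WT (0). With each library left out in turn, DSS calls ran from 10 to 25 in WT (lowest without WT untreated replicate 1), 12 to 23 in VAA (lowest without VAA untreated replicate 2; 13 without replicate 1) and 11 to 26 in KO (lowest without KO untreated replicate 1). Under DSS they ran from 0 to 2 for VAA against WT, 2 to 11 for KO against WT (lowest without WT DSS replicate 2, highest without VAA DSS replicate 3) and 2 to 8 for KO against VAA (lowest without KO DSS replicate 1, highest without VAA DSS replicate 2). For the DSS effect in KO against VAA they ran from 0 to 3, highest without VAA DSS replicate 2. A group of untreated libraries then holds 1 library, which is assumed to vary like the others. The cause of these shifts was not tested. With the replicate block the counts were 22, 22 and 26 for DSS in WT, VAA and KO, and 8 for KO against WT and 5 for KO against VAA under DSS. The WT value of *H2-K1* was then 0.41 (edgeR adjusted *P* = 0.062). Calls gained included *H2-Aa*, *H2-DMa* (WT), *Tapbp* (KO), *H2-Q7* and *Tap2* (KO against WT under DSS), and not all gains are named. By residual correlation 7 of 15 libraries were closest to their own number.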
